A study of Nothobranchius furzeri with 12 samples.

Results

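Intestines of 20-week-old killifish kept on intermittent fasting (W20 IF) were compared with intestines of fish of the same age that were fully fed (W20 AL). The comparison used 7 of the 12 sequenced libraries, namely W20 IF replicates 1 to 3 and W20 AL replicates 1 to 4. W20 IF replicate 4 held far fewer counts than the rest. It was left out of the test and is shown beside the results as a check. All fish were wild-type males of the short-lived GRZ strain of Nothobranchius furzeri, and each library came from the intestine of a single fish. The W20 IF fish received excess food on every other day only, starting as adults at 10 weeks. The W20 AL fish had excess food every day throughout. On its feeding days the fasted group was fed like the other group, and the males lived in tanks of their own. Fully fed fish of 10 weeks (W10, 4 libraries) contributed to the estimate of the spread, served to define a set of genes with next to no counts, and are otherwise given as values only. Whether the W20 IF fish were killed on a fed or a fasted day is not given in the sources used here. The labels name the tissue as whole intestine, whereas the methods speak of small intestines.

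Every-other-day fasting alternates complete fasting days with days of unrestricted food, so that it changes both the timing and, usually, the total of food intake. The intestine is the organ that meets this change first. Its epithelium breaks down and absorbs nutrients, and it is renewed throughout life from dividing stem cells. In mammals the lining of the gut thins during fasting and regrows on refeeding, and enzymes and transporters of the absorptive cells follow the food supply. RNA from a whole intestine mixes epithelium, muscle, immune and other cells, so that fewer cells of a type and less RNA per cell cannot be told apart.

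The 3 W20 IF libraries in the test held 25710351, 25774912 and 24937470 counts. The W20 AL libraries held 25642167, 23226098, 24074965 and 24921781 counts. W20 IF replicate 4 held 1512262 counts, 17.0-fold below the median of the other W20 IF libraries. Levels are given in CPM, the counts of a gene per 1000000 counts of its library. Where no count was found, 3 counts of the total were taken as the limit, which is 0.116 to 0.129 CPM in the 7 libraries of the comparison and 1.98 CPM in W20 IF replicate 4. These limits cover counting error only. Genes are identified by their Ensembl numbers. None of the 25475 numbers matched a gene name in the table used here, so that neither the tissue nor any pathway could be checked against marker genes.

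Over all 18277 genes that passed the filter on low counts, the 7 libraries separated by diet. On the log2 scale (CPM plus 0.5), the distances between a W20 IF and a W20 AL library ran from 59.5 to 75.1 over 12 pairs, with a median of 66.8. The 3 pairs within W20 IF were 46.1 to 57.2 apart (median 53.0), and the 6 pairs within W20 AL were 40.7 to 50.9 apart (median 44.5). Every distance between the diets was longer than every distance within a diet.

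At changes above 1 on the log2 scale, more genes were higher than lower in W20 IF, whereas smaller changes went both ways in similar numbers. By edgeR's quasi-likelihood test, 611 genes passed the limits of 0.05 for the adjusted p-value and 1 for the absolute log2 fold change, which is 3.34% of the genes tested. They are referred to as called. The unadjusted p-value was under 0.05 for 5446 genes (29.8%). Among the 611, W20 IF was the higher diet group in 481 (2.63% of the genes tested) and the lower in 130 (0.711%), so that 78.7% of the called genes were higher. The median log2 fold change of the genes that rose was 1.52, with quartiles of 1.23 and 1.94 and a median standard error of 0.36. In the genes that fell it was -1.25, with a median standard error of 0.26. Large changes were nearly confined to genes that rose. A log2 fold change above 2 was found in 110 of them and one above 3 in 30, whereas 10 genes fell by more than 2 and 0 by more than 3 on this scale. Many of the genes with the largest rises shared one profile, with W20 IF replicate 1 and W20 AL replicate 4 the lowest libraries of their diets. Other large rises had W20 AL replicate 4 as the highest W20 AL library instead, among them ENSNFUG00015013868, ENSNFUG00015010004 and ENSNFUG00015024588. Further rises had W20 AL replicate 1 as the highest W20 AL library, among them ENSNFUG00015017345, ENSNFUG00015006756 and ENSNFUG00015009047. These counts are therefore not counts of independent changes. The largest rise was 5.04 and the largest fall -2.65. The median log2 fold change over all genes tested was 0.02.

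**Figure D1:**
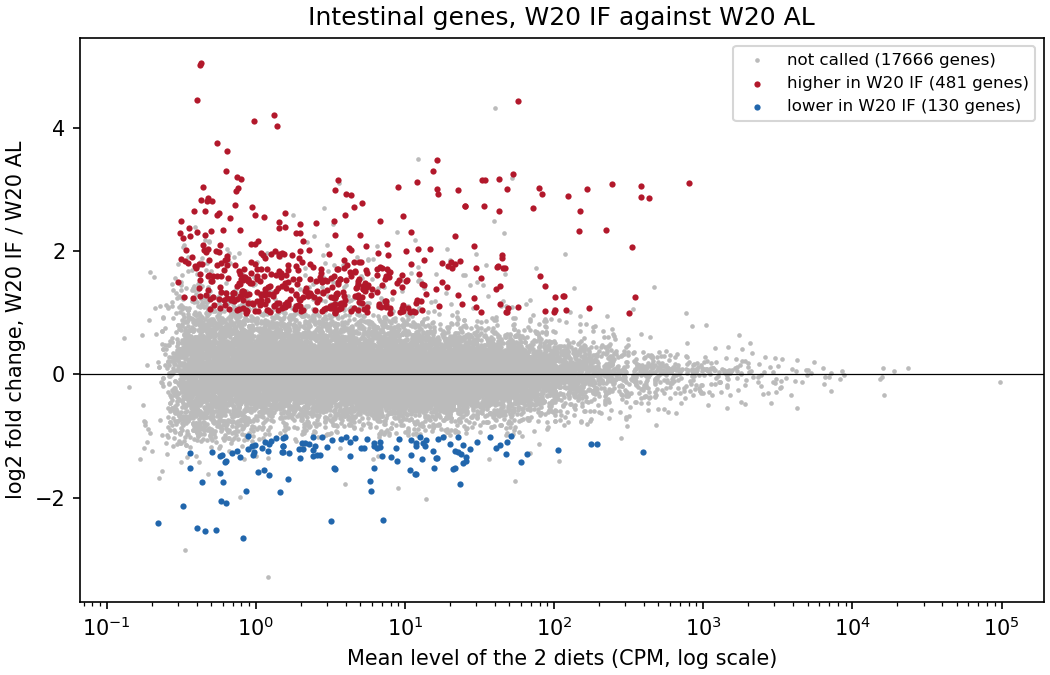
Log2 fold change of each gene tested, W20 IF over W20 AL (vertical axis), against its mean level in CPM over both diets on a log scale (horizontal axis). Red points are the 481 genes that were higher in W20 IF, blue points the 130 that were lower, and grey points the genes that were not called. The red points reach 5.04 and lie mostly below 10 CPM, whereas no blue point lies below -2.65.

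The excess of higher genes came with the size of the change. Without the limit on the fold change, 2769 genes had an adjusted p-value under 0.05 (15.2% of the genes tested, same edgeR test), of which 1468 (8.03%) were higher in W20 IF and 1301 (7.12%) lower. Among those that differed by at most 0.5 on the log2 scale, 421 were higher and 625 lower. Between 0.5 and 1, 566 were higher and 546 lower. Between 1 and 2, 371 were higher and 120 lower, and above 2, 110 were higher and 10 lower. The share of higher genes thus stood at 40.2%, 50.9%, 75.6% and 91.7% over these 4 classes. Genes that vary together count singly in these shares. At the limit itself, the called genes nearest to it had log2 fold changes of 1.0001 and -1.001, and the nearest genes outside it 0.9998 and -0.9978.

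The frequency of calls also depended on how abundant a gene was. Of 3166 genes with a mean level under 1 CPM, 4.26% rose and 0.884% fell in W20 IF. Of 7437 genes at 1 to 10 CPM, 3.39% rose and 0.780% fell. In the class of 10 to 100 CPM, with 6585 genes, 1.14% rose and 0.607% fell. Of the 1089 genes at 100 CPM and over, 1.74% rose and 0.367% fell. Rises outnumbered falls at every level, by the smallest margin at 10 to 100 CPM. With the p-value limit alone, 806 genes of the class of 10 to 100 CPM were lower in W20 IF and 618 higher, whereas in the class of 1 to 10 CPM 352 were lower and 619 higher. The precision differed between the classes, since the median standard error of the log2 fold change was 0.38 under 1 CPM, 0.19 at 1 to 10 CPM, 0.11 at 10 to 100 CPM and 0.10 above.

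**Figure D2:**
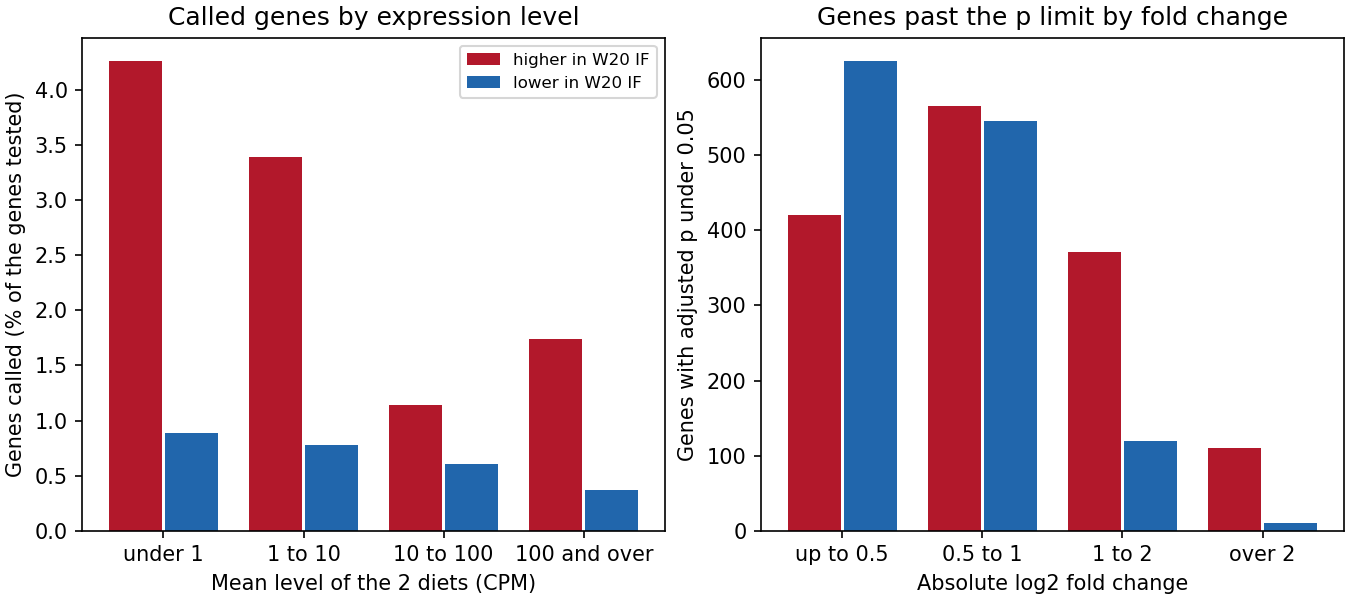
Left, share of the genes tested that were called (percent) in 4 classes of mean level in CPM. Right, number of genes with an adjusted p-value under 0.05 in 4 classes of absolute log2 fold change. Red bars are genes higher in W20 IF and blue bars genes lower in W20 IF. On the right the blue bar is the taller only for changes up to 0.5 (625 against 421 genes), and on the left the red bars are the taller in every class.

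Among the 481 genes that rose, every W20 IF library of the test lay above every W20 AL library in 457 (95%). Over all genes tested, the diets did not overlap in 24.7%, and in 13.5% the W20 IF libraries were the higher. Among the 130 genes that fell, every W20 IF library lay below every W20 AL library in 125 (96.2%), against 11.1% of all genes tested. Since the genes were called on these libraries, the separation follows in part from the choice. The genes that rose had a median level of 2.36 CPM over both diets (quartiles 0.891 and 7.05, range 0.299 to 807). Those that fell had a median of 3.87 CPM (quartiles 1.20 and 13.7, range 0.220 to 393). Fish of the same diet differed as well. In the genes that rose, the highest W20 IF library was 1.57 times the lowest in the median gene, and more than 2 times in 21.8% of them. Among W20 AL libraries the median ratio was 2.24 for the same genes. In the genes that fell, the ratio was 1.72 among the W20 IF libraries and 1.57 among the W20 AL libraries.

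Most called genes were detected under both diets. Of the genes that rose, 5 had at most 3 counts in each W20 AL library, and 0 were without a count in all of them. Of the genes that fell, 1 had at most 3 counts in each W20 IF library of the test, and 0 were without a count in all 3.

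The genes that rose added more to the counted RNA than the genes that fell took from it. Their summed level was 10161, 15641 and 13028 CPM in the W20 IF libraries, against 3381, 3423, 3510 and 2788 CPM in the W20 AL libraries. On average this was 12943 ± 2741 CPM (SD, n = 3) in W20 IF, or 1.29% of the counts, and 3276 ± 329 CPM (SD, n = 4) in W20 AL, or 0.328%. The fourth W20 IF library, which had no part in choosing the genes, held 10695 CPM and lay within the range of the other W20 IF libraries. The W10 libraries held 16135, 11966, 8403 and 9741 CPM. The genes that fell summed to 1067, 1360 and 1280 CPM in W20 IF (1236 ± 151, SD, n = 3), against 2837, 3026, 2962 and 2767 CPM in W20 AL (2898 ± 117, SD, n = 4). For these genes W20 IF replicate 4 held 1380 CPM and the W10 libraries 1738, 1963, 1469 and 1854 CPM. The groups did not overlap in either sum, which the choice of genes fixes for the 7 libraries of the test.

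A few abundant genes carried much of these sums. The 4 genes with the most counts among those that rose, picked after their values were seen and left without names, made up 21.2, 30 and 29.2% of the summed level in W20 IF replicates 1 to 3. In W20 AL replicates 1 to 4 they made up 12.3, 19.0, 18.2 and 2.98%. The most abundant of the 4 had 892, 1897 and 1546 CPM in W20 IF, against 162, 242, 241 and 30.5 CPM in W20 AL, and 2721, 1759, 950 and 1207 CPM in W10. On the log2 scale the diets differed by 3.10, with a standard error of 0.67 and an adjusted p of 0.0186 in edgeR's quasi-likelihood test. The other 3 had log2 fold changes of 2.86, 2.88 and 3.05. All 4 genes had their highest W20 IF level in replicate 2, their lowest in replicate 1, and their lowest W20 AL level in replicate 4. Without W20 AL replicate 4 they remained called, with log2 fold changes of 2.52 to 2.76. Without W20 IF replicate 2 none of the 4 was called (log2 fold changes of 2.62 to 2.86, adjusted p of 0.0535 to 0.0680 in the same edgeR test), and without W20 AL replicate 1 only the most abundant was (adjusted p of 0.0454, and 0.0514 to 0.0578 for the others). Over 16 alternative settings the 4 genes, from the most abundant down, were called in 15, 14, 11 and 14. The gene called in 11 was also lost without W20 IF replicate 3 (adjusted p of 0.0538), with only the 7 libraries compared (0.0544) and with a replicate block (0.0501), each in the same edgeR test. In W20 IF replicate 4, the levels were 1277, 553, 510 and 713 CPM, all above every W20 AL library. The remaining genes that rose summed to 8004, 10944 and 9227 CPM in W20 IF, against 2965, 2772, 2871 and 2705 CPM in W20 AL. W20 IF replicate 4 held 7642 CPM of these, above all W20 AL libraries but below every other W20 IF library. This remainder still held genes with the same order of libraries, among them ENSNFUG00015011022 and ENSNFUG00015015179.

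Among the genes that fell, the most abundant showed little spread. It had 232, 245 and 221 CPM in W20 IF, against 581, 604, 562 and 467 CPM in W20 AL, and 268, 378, 229 and 312 CPM in W10. The log2 fold change was -1.25, with a standard error of 0.14 and an adjusted p of 0.000287 (edgeR's quasi-likelihood test), and the call held in 16 of 16 alternative settings. It stood at 180 CPM in W20 IF replicate 4, lower than every W20 AL library. The next had 70.4, 154 and 140 CPM in W20 IF against 267, 228, 325 and 245 CPM in W20 AL, and its log2 fold change of -1.13 was -0.84 without W20 IF replicate 1. The third in this order, with a log2 fold change of -1.12, kept its call in 8 of the 16 settings. The fourth had 44.1, 77.2 and 68.9 CPM in W20 IF against 89.2, 118, 153 and 231 CPM in W20 AL. Its level in W20 IF replicate 4 was 392 CPM, above all W20 AL libraries, and it kept its call in only 6 of the 16 settings.

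Levels of the called genes were next set against the W20 AL mean in each library, on the log2 scale with 0.5 CPM added, which understates the change of low genes. The genes that rose lay 1.19, 1.21 and 1.05 above that mean in W20 IF replicates 1 to 3 (median gene), and between -0.08 and 0.07 in the W20 AL libraries. In W20 IF replicate 4 the median was 0.47. Over the 169 of these genes with at least 10 counts expected there, it was 1.02. The same 169 genes had a median of 1.51 in the mean of W20 IF replicates 1 to 3, so that they are also genes with larger rises. Whether the low depth of replicate 4 lowered its median was not tested. In the W10 libraries, over all of the genes that rose, the medians were 0.11, 0.47, 0.46 and 0.50. The genes that fell lay at -1.09, -1.0 and -0.93 in W20 IF replicates 1 to 3, at -1.24 in W20 IF replicate 4 and between -0.08 and 0.11 in W20 AL. The W10 libraries had medians of -0.31, -0.33, -0.65 and -0.50. The levels of W10 thus stood between those of both W20 groups in the median gene of either set. Sets of genes that rose departed from this median in opposite directions, so that it does not describe them. In ENSNFUG00015003267 the W10 libraries had 4.38, 3.75, 2.86 and 3.2, against 2.77, 3.86 and 3.56 in W20 IF replicates 1 to 3. W10 was likewise near or above W20 IF in further genes, among them ENSNFUG00015011022 and ENSNFUG00015015179. In ENSNFUG00015013868 the W10 libraries had -2.51, -2.54, -2.91 and -2.37, below all W20 AL libraries (-1.25 to 1.87). They were also below all W20 AL libraries in others, among them ENSNFUG00015024588 and ENSNFUG00015010942. In a further set the W10 libraries were split. For ENSNFUG00015017345, W10 replicate 1 had -0.63, below all W20 AL libraries, while W10 replicates 2 to 4 had 1.32, 1.3 and 1.83, above all of them. ENSNFUG00015006756 and ENSNFUG00015009047 had the same split. Choosing the genes on W20 IF against W20 AL can also place the W10 median in between. The W20 AL libraries are the common reference for all of these values.

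**Figure D3:**
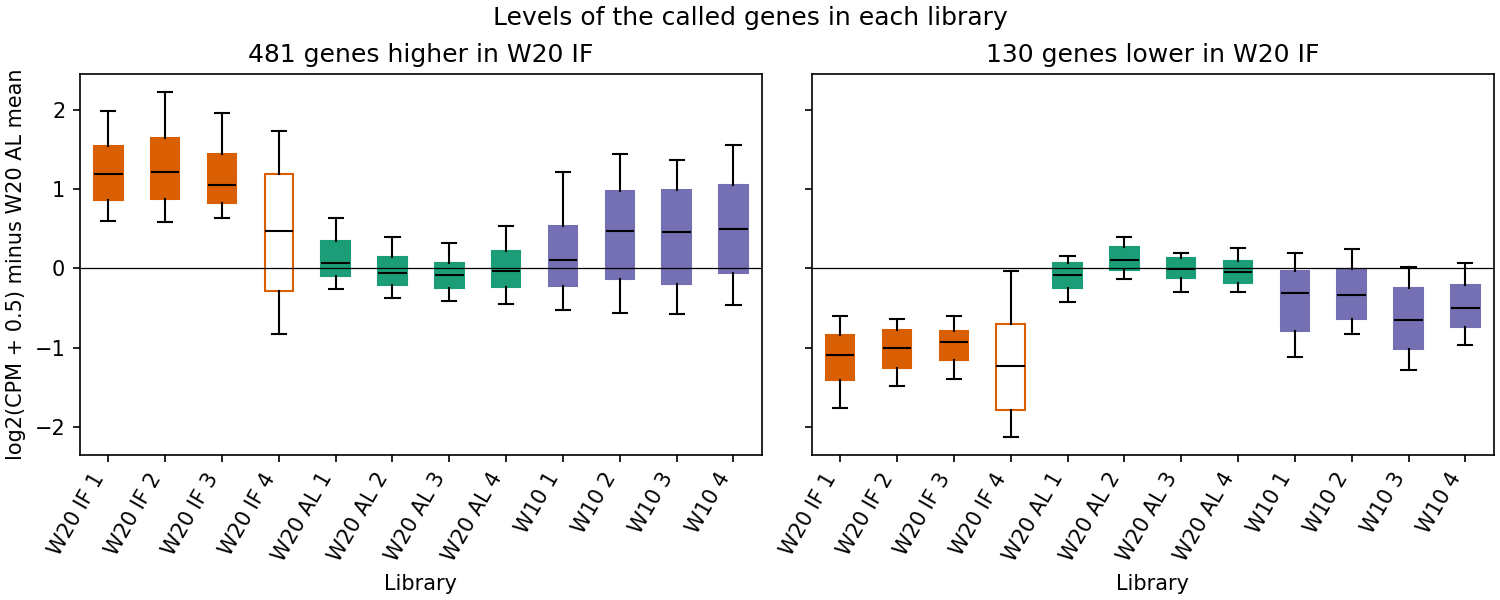
Levels of the 481 genes that were higher in W20 IF (left) and the 130 that were lower (right), as log2(CPM + 0.5) minus the mean of the W20 AL libraries, in each of the 12 libraries. Boxes span the quartiles with the median as a line, whiskers span the 10th to the 90th percentile, and the open box is W20 IF replicate 4, which was not in the test. In that library the median is 0.47 on the left and -1.24 on the right, and its boxes are wider than those of the deeper libraries.

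W20 IF replicate 2 contributed most to the rises. It was the highest of the 3 W20 IF libraries in 257 of the 481 genes that rose (53.4%), while replicate 1 was highest in 28.9% and replicate 3 in 17.7%. Over all genes tested, the shares were 30.7% for replicate 2, 42.4% for replicate 1 and 26.9% for replicate 3. Of the W20 AL libraries, replicate 2 was the highest in 46.2% of the genes that fell, against 33.4% of all genes tested. In the genes that rose, W20 AL replicate 1 was the highest of its group in 36.4% and replicate 4 in 28.7%. Over all genes tested these shares were 29.2% and 19.7%. Leaving out each of the 7 libraries in turn gave 430 to 612 called genes. Called in all 7 of these fits were 179 of the genes that rose (37.2%) and 57 of those that fell (43.8%). Their median absolute log2 fold change was 1.79 for the genes that rose and 1.32 for those that fell. Called in all 16 alternative settings, of which a stricter filter takes low genes out of the test, were 93 of the genes that rose (19.3%) and 49 of those that fell (37.7%).

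The gene with the largest rise among those that reached 1 CPM and did not overlap between the diets was ENSNFUG00015013868. It had 77.4, 159 and 91.1 CPM in W20 IF, against 1.40, 4.35, 1.08 and 13.2 CPM in W20 AL. The W20 AL libraries spread widely among themselves. The gene averaged 109 ± 43.4 CPM in W20 IF (SD, n = 3), against 5.01 ± 5.66 CPM in W20 AL (SD, n = 4), a 21.8-fold difference. The log2 fold change was 4.44, with a standard error of 0.76 and an adjusted p of 0.00768 (edgeR's quasi-likelihood test), and was 5.60 without W20 AL replicate 4. In W10 the gene was near the limit of detection, with 0.158, 0.148, 0 and 0.225 CPM. The fourth W20 IF fish did not share this level. It had 1.32 CPM, from 2 counts, which is within the range of W20 AL.

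The next, ENSNFUG00015022812, was a gene of low abundance. Its levels were 2.22, 2.83 and 2.53 CPM in W20 IF, from 57, 73 and 63 counts. In W20 AL it had 0, 0, 1 and 12 counts, the last of these being 0.482 CPM in replicate 4. The gene averaged 2.53 ± 0.308 CPM in W20 IF (SD, n = 3), against 0.131 ± 0.235 CPM in W20 AL (SD, n = 4). The log2 fold change was 4.2, with a standard error of 0.68 and an adjusted p of 0.00262 in the same edgeR test. Its size rests on W20 AL replicate 4, without which it was 7.09 with no more than 1 count in any remaining W20 AL library. W10 had 0.0789, 0.0371, 0 and 0 CPM. No count was found in W20 IF replicate 4, which allows up to 1.98 CPM there. That limit is so close to the 2.22 CPM of the lowest other W20 IF library that it cannot set this fish apart.

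The largest falls were in genes of low abundance too. ENSNFUG00015019646 had 9, 6 and 2 counts in W20 IF, or 0.350, 0.233 and 0.0802 CPM, against 39, 43, 17 and 40 counts in W20 AL, or 1.52, 1.85, 0.706 and 1.61 CPM. The lack of overlap between these 7 fish was a condition for naming the gene. The log2 fold change was -2.65, with a standard error of 0.50 and an adjusted p of 0.00421 in the same edgeR test. The W10 libraries had 0.395, 0.333, 0.124 and 0.639 CPM, below every W20 AL library. In W20 IF replicate 4 there were 2 counts, or 1.32 CPM, above the lowest W20 AL library and too few to place it with either diet.

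ENSNFUG00015009628 had 0.545, 1.90 and 0.602 CPM in W20 IF, from 14, 49 and 15 counts, against 4.80, 4.69, 6.77 and 5.02 CPM in W20 AL. The gene averaged 1.02 ± 0.767 CPM in W20 IF (SD, n = 3), against 5.32 ± 0.977 CPM in W20 AL (SD, n = 4). W20 IF replicate 2 stood above the other W20 IF libraries and still well below W20 AL. The log2 fold change was -2.38, with a standard error of 0.44 and an adjusted p of 0.00548 in the same edgeR test. The W10 libraries had 1.30, 3.52, 1.77 and 2.52 CPM, and W20 IF replicate 4 had no count, which allows up to 1.98 CPM.

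**Figure D4:**
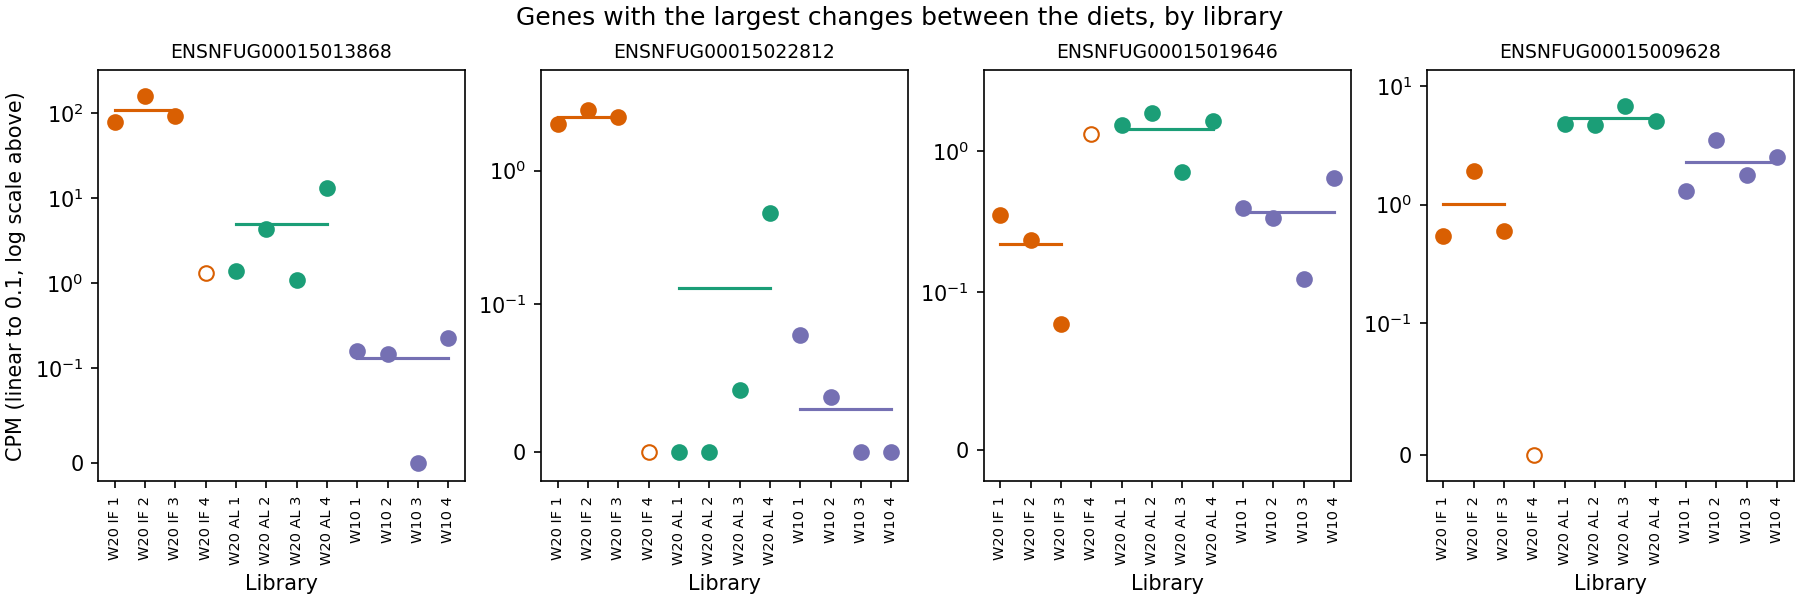
Levels in CPM of the 2 genes with the largest rise and the 2 with the largest fall in W20 IF among called genes that reached 1 CPM and did not overlap between the diets, in each library (linear to 0.1 CPM, log scale above). Points are single fish, lines are group means, and the open point is W20 IF replicate 4, which enters neither the mean nor the test. For ENSNFUG00015013868 the open point lies at 1.32 CPM among the W20 AL fish, far below the other W20 IF fish at 77.4 to 159 CPM.

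The calls were then set against W20 IF replicate 4, a fish that had no part in them. The study's methods give 5 fish per group and state that a fish of the IF group failed quality assessment, which left 4 in that group and 5 in each of the others. The failed fish is not named. The data used here hold 4 libraries in every group. Whether replicate 4 was the failed fish is not given in the sources used here. It was read for genes of which at least 10 counts were expected at its depth, which left 169 of the 481 genes that rose and 61 of the 130 that fell. It lay on the W20 IF side of the mid-point between the diets in 54 of the 61 genes that fell (88.5%, exact 95% binomial confidence interval 77.8 to 95.3%). Of the genes that rose it did so in 93 of 169 (55.0%, 47.2 to 62.7%), and this share was 48.8% with at least 5 expected counts and 65.0% with at least 20. Genes vary together, so that these intervals are too narrow. Genes that were not called gave the background in the same library. It was on the W20 IF side in 73.7% of 4866 genes that were lower in W20 IF without being called, and in 36.0% of 4589 that were higher. Both shares of the called genes were above these, while its levels were shifted downward as a whole, with a median of -0.21 on the log2 scale against the W20 AL mean over 9224 genes. With a scaling by TMM factors of all 12 libraries in place of the library total, a choice made after this shift was seen, the shares were 85.2% for the genes that fell and 61.5% for those that rose, beside 63.7% and 47.4% for the genes that were lower and higher without being called.

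The size of the change in that library differed between the directions. Over the 61 genes that fell, the median was -1.32 in W20 IF replicate 4 and -1.19 in the mean of W20 IF replicates 1 to 3. Over the 169 that rose it was 1.02 in replicate 4 and 1.51 in replicates 1 to 3. Replicate 4 lay beyond all 4 W20 AL libraries in 91.8% of the genes that fell and 72.8% of those that rose. Among genes that were not called, this held for 69.3% of those lower and 35.1% of those higher in W20 IF. Replicate 4 had no count for 5 of the 169.

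Genes with next to no counts in the younger fish were also compared between the diets. Of the 25475 genes, 3206 had at most 3 counts in sum over the 4 W10 libraries, a rule that does not use the W20 libraries and was chosen after values had been seen. In W20 IF these genes summed to 132, 145 and 122 CPM (133 ± 11.5, SD, n = 3). In W20 AL they summed to 46.1, 61.8, 48.3 and 81.2 CPM (59.3 ± 16.1, SD, n = 4). The mean sum of W20 IF was 2.24 times that of W20 AL, and the groups did not overlap (exact two-sided permutation test, p = 0.0571, the smallest p that 3 against 4 libraries allow, so that the design cannot reach 0.05; 0.0857 after Benjamini-Hochberg adjustment over 3 such tests). The sum is not independent of the calls above. Of the 3206 genes, 29 passed the filter on low counts, through the W20 libraries, and 21 of these are among the 481 called as higher in W20 IF. Of all genes tested, 2.63% were called as higher. Genes so low in W10 could pass the filter only through W20 libraries in which they were high, so that these calls follow in part from the filter. For genes with 0 counts in all W10 libraries the ratio was 3.70. At least 10 counts were found for 39, 40 and 36 of the 3206 genes in W20 IF and for 3, 8, 2 and 26 of them in W20 AL. The number was thus high in all 3 fasted fish of the test and in a single fed fish. W20 IF replicate 4 had 2 such genes, which its low depth leaves without a reading. On average there were 38.3 ± 2.08 such genes in W20 IF (SD, n = 3), against 9.75 ± 11.1 in W20 AL (SD, n = 4). Without W20 AL replicate 4 the W20 AL mean was 4.33 ± 3.21 genes (SD, n = 3).

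Much of this sum sat in few genes. The 10 with the most counts over the 7 libraries were picked through the W20 libraries in which they were high, so that their difference between the diets follows in part from the choice. They held 49.4, 61.6 and 35.8 CPM in W20 IF, against 2.07, 4.91, 1.04 and 15.5 CPM in W20 AL. The remaining genes summed to 82.6, 83.9 and 85.7 CPM in W20 IF, against 44.1, 56.9, 47.2 and 65.7 CPM in W20 AL, which again did not overlap. The fourth W20 IF library departed from its group in this respect. Its sum of 113 CPM (171 counts, exact Poisson interval 96.8 to 131 CPM) was above all W20 AL libraries, but the 10 genes with the most counts gave only 0.661 CPM of it. The remaining genes gave 112 CPM, above the 82.6 to 85.7 CPM of the other W20 IF libraries. The number of genes with any count hardly differed between the diets. At an equal depth of 23226098 counts, 22444, 22584 and 22586 genes were expected with a count in W20 IF, and 22188, 22469, 22215 and 22335 in W20 AL (ratio of the means 1.01, exact two-sided permutation test, p = 0.114).

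**Figure D5:**
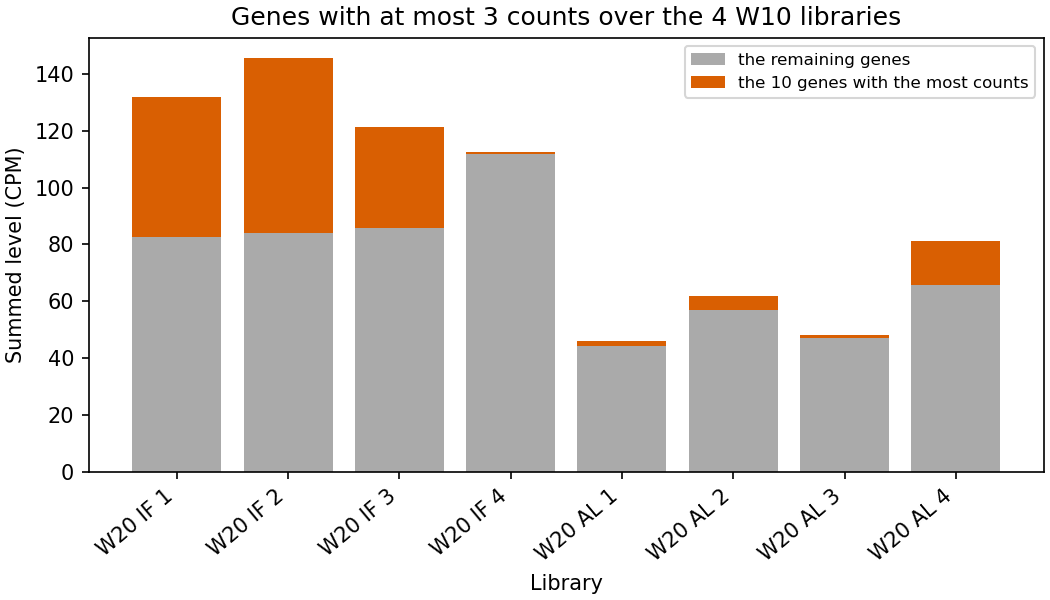
Summed level in CPM of the 3206 genes with at most 3 counts over the 4 W10 libraries, in each W20 library. The orange part is the sum of the 10 genes with the most counts and the grey part that of the remaining genes. The orange part is 35.8 to 61.6 CPM in W20 IF replicates 1 to 3, 15.5 CPM in W20 AL replicate 4 and at most 4.91 CPM in the other libraries.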

How the data were processed

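Intestinal poly(A) RNA of single fish was sequenced with a directional kit as pairs of 75 bp reads. The values the authors deposited are whole-number counts per gene and library, neither normalized nor pooled. Per the study's methods and the submitters' processing notes, Trimmomatic served for trimming, STAR for mapping to Nfu_20140520 (Ensembl release 108 genes) and featureCounts for counting. Program versions, the strand setting and the handling of multi-mapping reads are not given in the sources used here, which leaves counts of overlapping genes and of near-identical copies uncertain.

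From the counts, edgeR 4.0.16 (limma 3.58.1, R 4.3.3) was used for TMM scaling, filtering by filterByExpr (counts of at least 10, totals of at least 15) and quasi-likelihood testing (robust glmQLFit, glmQLFTest). 1 model with a mean per group was fitted to 11 libraries (3 W20 IF, 4 W20 AL, 4 W10), with Benjamini-Hochberg adjustment of the p-values over all 18277 genes tested, which held 99.9% of the counts. Called genes were under 0.05 in adjusted p-value and over 1 in absolute log2 fold change. The root of F served to turn fold changes into standard errors. On simulated counts, in which 200 genes changed by a log2 fold change of 2, 92% of these were called, with 2 false calls among 18045 genes tested. Genes were drawn independently there, unlike the real genes, which vary together, so that the number of false calls need not carry over. None of 18 same-group pairs of libraries was identical (chi-square per degree of freedom at least 9.41), and all counted as separate fish.

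The rule for naming took the largest rise and fall among called genes that reached 1 CPM in the higher group and did not overlap between the diets, 2 in each direction, because no identifier could be paired with a name. For this reason 34 lists of pathway and cell type genes, held by symbol, were not used, and no sequences are shown. The comparison, the lists and the rules were chosen with earlier results of these data known. The test was repeated with DESeq2 1.42.0, with a likelihood ratio test in edgeR, with other scalings and filters, on 7 or on 12 libraries, with replicate number as a block, without the fold change limit, and with single libraries left out. Exact permutation tests used scipy 1.17.1, and figures were drawn with matplotlib 3.10.9 in Python 3.11.15.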

Additional observations from a re-analysis of the deposited data

Results flagged for a closer look

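In groups of 4 libraries, a library was marked where its gap to the nearest other relative to the group's range exceeded the 95% limit of Dixon's test. Of 27 groups tested, 4 passed this limit. Chance passes it in about 1 in 20 of independent groups, a rate that does not apply here. Both marks of W20 IF replicate 4 go with its low depth, and the marked genes were named for their large differences. W20 IF replicate 4 was marked for its total of 1512262 counts and for its 17059 genes with a count, where the other W20 IF libraries had 22563 to 22701 genes. At the depth of replicate 4, 17078 to 17542 genes would be expected with a count in the W20 libraries of the test. W20 AL replicate 4 was marked for ENSNFUG00015022812, with 0.482 CPM where the other W20 AL libraries had at most 0.0415 CPM. W20 AL replicate 3 was marked for ENSNFUG00015009628, with 6.77 CPM where the others had 4.69 to 5.02 CPM. In W20 IF replicate 4, which the test did not use, the genes with next to no counts in W10 summed to 113 CPM, above the 46.1 to 81.2 CPM of the W20 AL libraries. The 10 of these genes with the most counts gave 0.661 CPM of it, against 35.8 to 61.6 CPM in W20 IF replicates 1 to 3. The sum thus came from other genes than in those libraries.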

How the results depend on the processing

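The number of called genes stayed within 1.5 times of 611 under other scalings and tests, without a filter on low counts and with only the 7 libraries compared (593 to 743 genes). Asking for 10 or more counts in every library gave 402 genes among 15807 tested, of which 74.6% were higher in W20 IF. With all 12 libraries 559 genes were called and 75% were higher. Without a limit on the fold change the number was 2769 and the share 53.0%. Leaving out single libraries gave 430 to 612 called genes, of which 67.8 to 79.1% were higher, with the lowest shares without W20 IF replicate 3 (67.8%) and replicate 2 (68.6%). The deviations of same-numbered libraries correlated at 0.059, -0.026 and -0.085, within the range of -0.1 to 0.154 of the pairs with different numbers. So few pairs cannot decide whether libraries of the same number shared their handling. With a replicate block in the model, 516 genes were called, 77.1% of them higher, and 72.5% of the 611 genes were kept. ENSNFUG00015013868 (log2 fold change 4.05 to 5.65), ENSNFUG00015022812 (3.77 to 7.09), ENSNFUG00015019646 (-3.11 to -2.29) and ENSNFUG00015009628 (-3.22 to -2.06) kept their calls in every setting that tested them, with adjusted p-values of up to 0.0306 in edgeR or DESeq2. The share of genes that rose with W20 IF replicate 4 on the W20 IF side was 48.8% with at least 5 expected counts, 65.0% with at least 20 and 61.5% with TMM scaling. The ratio of W20 IF to W20 AL in genes with next to no counts in W10 was 3.70 with 0 counts in W10, 1.81 with at most 10, and 1.57 without the 10 genes with the most counts. It was 2.09 to 2.55 with each library left out. The settings for replicate 4 and for this ratio were chosen after seeing the data, and the causes of these shifts were not tested. The alternatives for gene lists were not run, because no list could be matched. In W20 IF replicate 4, levels under 1.98 CPM cannot be told from none.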
